A study of Mus musculus with 5 samples.

Results

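Heat shock proteins and chaperonins were examined in mouse embryonic cortical cells made to express Ptf1a, a transcription factor of inhibitory neurons and pancreatic acinar cells. The members were chosen by gene symbol alone (names beginning Hspa, Hspb, Hsp90, Dnaja, Dnajb or Dnajc with a number, Cct2 to Cct8, Hspd1, Hspe1 and Hsph1), which gave 81 of the 23234 genes in the table. The authors tested 65 of them, and the other 16 reached at most 0.574 FPKM in Ptf1a samples and 0.510 FPKM in GFP-only samples. Every sample came from CD1 mouse cortex electroporated in the embryo at E12.5 and harvested at E15.5, and GFP-positive cells were sorted from pools of 3 to 6 brains. The Ptf1a group (3 samples) carried a construct for Ptf1a together with GFP, and the GFP-only group (2 samples) carried GFP without it. The promoter driving either construct is not given in the sources used here, and the labels call the cells pyramidal cells.

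Molecular chaperones bind unfolded proteins and help them reach or regain their shape. Hsp70 proteins clamp short greasy stretches and let go again in a cycle driven by ATP. J-domain proteins (the DNAJ families) start that cycle, and nucleotide exchange factors, among them the Hsp110 proteins, end it. Hsp90 takes on nearly folded kinases and receptors, small heat shock proteins hold unfolding clients without using ATP, and the chaperonins Hsp60 (in mitochondria) and CCT (in the cytosol) enclose a client in a ring. CCT is the folding chamber for actin and tubulin, both made in quantity by growing neurons. Heat and other protein damage raise a subset of these genes through the factor HSF1, and stress in the endoplasmic reticulum (ER) raises another subset.

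The authors deposited 1 merged value per gene and group, in FPKM (fragments scaled to transcript length and library size, a level that can be compared between genes). Spread between samples and depth are therefore unknown. Differences are log2(FPKM + 0.1) in Ptf1a samples minus the same in GFP-only samples. The only error at hand is the standard error implied by the authors' test, which is their log2 fold change divided by their test statistic. It belongs to that fold change, made without the added 0.1. For weak genes the scales part, as for Dnajc16 (0.71 here, 0.87 as the authors' log2 fold change). Rose and fell are used here of genes with a q under 0.05 in the authors' deposited table, and describe Ptf1a samples relative to GFP-only samples. Ptf1a itself stood at 38.9 FPKM in Ptf1a samples and 0.210 FPKM in GFP-only samples, reads of the construct included.

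Most chaperone genes were not called, and most differences were small. Of the 65 tested members, 8 rose (12.3%), 11 fell (16.9%) and 46 were not called. Among all 11876 tested genes, 18.7% rose and 19.1% fell. In either direction 29.2% of tested members were called, against 37.7% of all tested genes. The median log2 difference was -0.053 over tested members and -0.0088 over all tested genes, and the median size of the difference without its sign was 0.23 over members and 0.32 over all tested genes. Changes of at least 1.5-fold were called in 10 members (15.4%), against 20.7% of all tested genes, and on the same log2(FPKM + 0.1) scale Hspb3 and Hspa4l were the called members that reached 2-fold. Without the added 0.1, the weakly expressed Dnajc25 (2.15 times higher in GFP-only samples), Dnajc1 (2.02 times higher in Ptf1a samples) and Hspb8 (2.00 times higher in Ptf1a samples) lay just past 2-fold too. In bulk RNA, fewer cells of a type and less RNA per cell cannot be told apart.

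The calls depend on the q limit and on how the p was made. Of the 19 called members, 13 kept their call at a q under 0.01 in the authors' deposited table, and Hspa14, Hspb8, Dnaja2, Dnajc9, Dnajc16 and Dnajc25 lost it. With an adjusted normal p of the authors' test statistic, Hspb3 and Hspb11 were the members still called, beside 6.12% of all genes with a statistic.

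**Figure D1:**
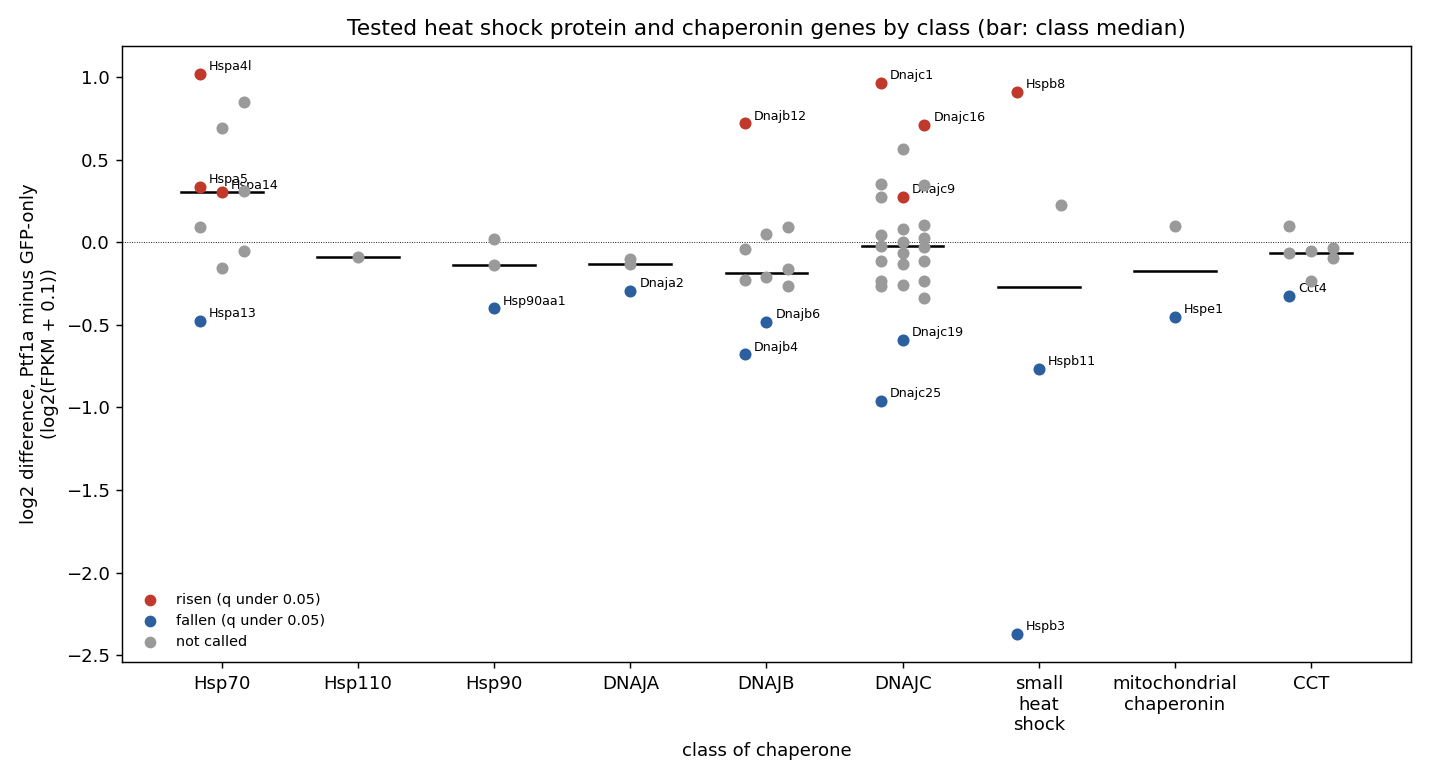
Log2 differences (Ptf1a minus GFP-only samples, log2(FPKM + 0.1)) of the 65 tested members by class, 1 point per gene, with risen genes in red, fallen genes in blue, uncalled genes in grey and the class median as a bar. Hspb3 lies far below the rest at -2.37, Hspa4l is highest at 1.02, and the CCT genes lie between -0.32 and 0.098.

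By level, a few genes made up most of the chaperone RNA. Hspa8, the constitutive cytosolic Hsp70 that also strips clathrin from vesicles, stood at 2892 FPKM in Ptf1a samples and 3218 FPKM in GFP-only samples. It held 32.1% of the summed FPKM of all 81 members in Ptf1a samples and 31.9% in GFP-only samples. Hsp90ab1, Cct5, Cct7, Dnajb6 and Cct4 followed it in the same order in both groups, and 9 of the 10 highest members in Ptf1a samples were also among the 10 highest in GFP-only samples. Without an error per level, neighbours in this order such as Hspe1 (322 FPKM) and Cct6a (326 FPKM) in Ptf1a samples cannot be set apart, and this pair stood in the opposite order in GFP-only samples (440.4 and 342 FPKM). The summed member FPKM was 9021 in Ptf1a samples and 10092 in GFP-only samples, and 20 members stood above 100 FPKM in each group.

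**Figure D2:**
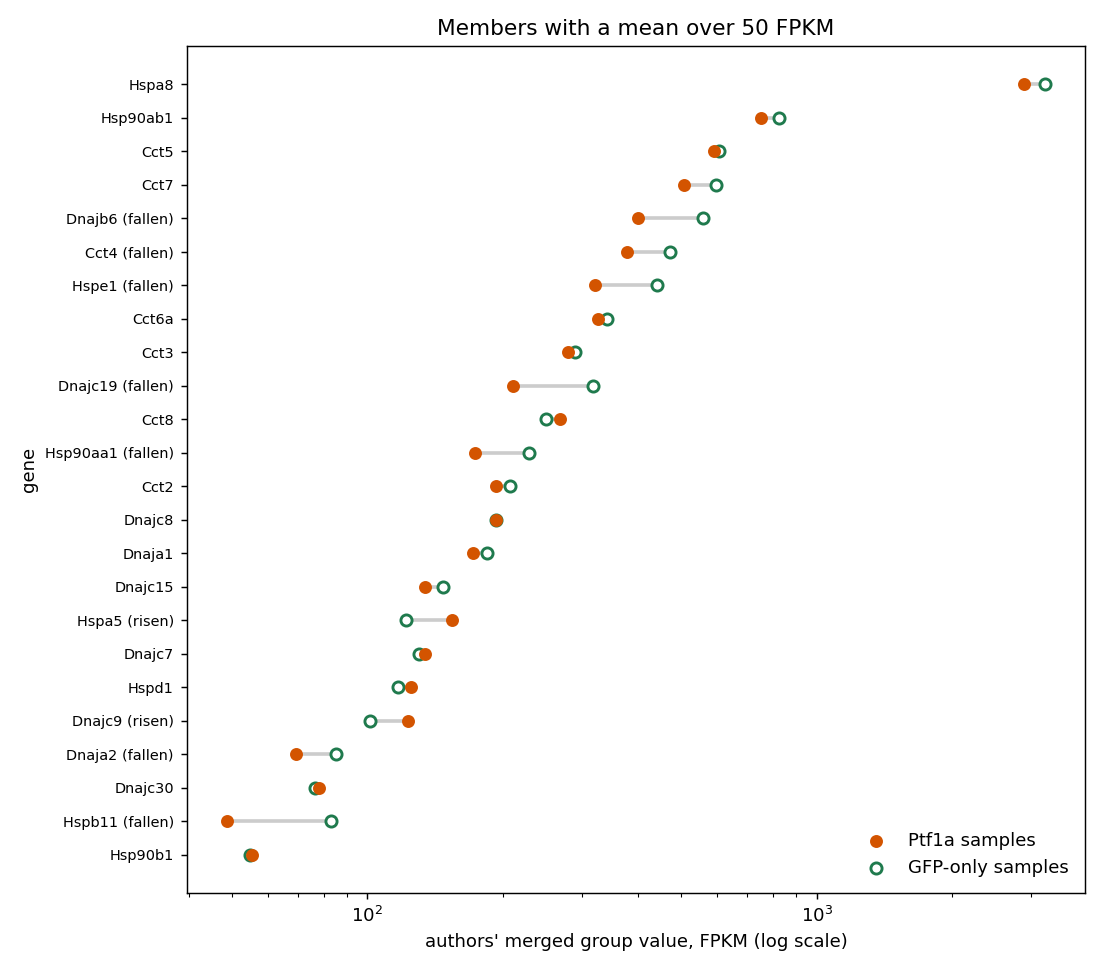
Levels of the 24 members with a mean over 50 FPKM, on a log scale, with filled points for Ptf1a samples and open points for GFP-only samples, each the authors' merged value. Hspa8 stands highest at 2892 FPKM in Ptf1a samples and 3218 FPKM in GFP-only samples, and the widest gap is that of Hspb11, at 48.8 FPKM in Ptf1a samples and 83.1 FPKM in GFP-only samples.

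Among the 13 genes named Hspa, the Hsp70 class here, 3 rose, 1 fell, 6 were not called and 3 had no test. The class takes in Hspa4 and Hspa4l, which are of Hsp110 type. Of its 10 tested genes 30.0% rose and 10.0% fell, beside 18.7% and 19.1% of all tested genes. Hspa4l (chromosome 3, 40549535 to 40594287, mm9), an Hsp110-type exchange factor for Hsp70, had 5.21 FPKM in Ptf1a samples, against 2.52 FPKM in GFP-only samples. Its log2 difference of 1.02 (implied standard error 0.38; q = 0.000329 in the authors' deposited table) was the largest rise of any tested member. Its close relative Hspa4 was not called, at 4.06 FPKM in Ptf1a samples and 3.26 FPKM in GFP-only samples. The ratio of Hspa4l to Hspa4 was thus 1.28 in Ptf1a samples and 0.773 in GFP-only samples, a difference that was not tested. Hsph1, the heat-inducible Hsp110 gene, was not called either, with 7.36 FPKM in Ptf1a samples and 7.85 FPKM in GFP-only samples.

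Hspa5 (chromosome 2, 34627610 to 34632049, mm9), which encodes BiP, the Hsp70 of the ER, rose to 154 FPKM in Ptf1a samples, against 122 FPKM in GFP-only samples (log2 difference 0.34, implied standard error 0.23; q = 0.00465 in the authors' deposited table). Hspa14, an Hsp70-like protein that works at the ribosome, rose to 45.4 FPKM in Ptf1a samples, against 36.8 FPKM in GFP-only samples, a log2 difference of 0.30. Hspa13, an ER-linked Hsp70 without a peptide-binding domain, fell to 8.51 FPKM in Ptf1a samples, against 11.9 FPKM in GFP-only samples. The calls thus ran both ways within the class. The abundant Hspa8 was not called (q = 0.301 in the authors' deposited table), nor was the mitochondrial Hsp70 gene Hspa9, with 44.8 FPKM in Ptf1a samples and 41.9 FPKM in GFP-only samples. The class median was 0.31, or 0.20 among the members with at least 1 FPKM in the higher group. Both medians count the Hsp110-type Hspa4 (log2 difference 0.31) and Hspa4l (1.02), and neither was computed without that pair. Hspa2 and Hspa1l, genes best known from testis, had log2 differences of 0.85 and 0.69 but stood at only 0.618 and 0.603 FPKM in Ptf1a samples, and were not called.

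Of the 3 Hsp90 genes, the heat-inducible cytosolic form fell. Hsp90aa1 (chromosome 12, 111929246 to 111934605, mm9) had 173 FPKM in Ptf1a samples, against 229 FPKM in GFP-only samples, a log2 difference of -0.40 (implied standard error 0.22; q = 0.000612 in the authors' deposited table). With the median of genes of like abundance taken off, its difference was -0.081. The constitutive form Hsp90ab1 was not called, at 752 FPKM in Ptf1a samples and 826 FPKM in GFP-only samples. Hsp90aa1 thus amounted to 0.230 of Hsp90ab1 in Ptf1a samples and to 0.277 in GFP-only samples. Hsp90b1, the ER form known as GRP94, had 55.4 FPKM in Ptf1a samples and 54.7 FPKM in GFP-only samples and was not called. Whether the 3 genes differed from each other was not tested.

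In the DNAJ families, with 45 genes, 4 rose, 5 fell, 29 were not called and 7 had no test. Of the 38 tested, 10.5% rose and 13.2% fell, beside 18.7% and 19.1% of all tested genes. In the DNAJA family, whose members assist Hsp70 in general folding, Dnaja2 fell to 69.4 FPKM in Ptf1a samples, against 85.1 FPKM in GFP-only samples. Dnaja1, at 172 FPKM in Ptf1a samples and 185 FPKM in GFP-only samples, and the mitochondrial Dnaja3 (log2 difference -0.13) were not called. In the DNAJB family 1 gene rose (10.0%) and 2 fell (20.0%) of the 10 tested. Dnajb6 (chromosome 5, 30061874 to 30113018, mm9), a suppressor of protein aggregation and the most abundant DNAJ gene here, fell to 400.2 FPKM in Ptf1a samples, against 559 FPKM in GFP-only samples (log2 difference -0.48, implied standard error 0.22; q = 0.000329 in the authors' deposited table). With the median of genes of like abundance taken off, its difference was -0.16. Its locus in the table is shared with the predicted gene Gm5129.

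Dnajb4, a partner of Hsp70 in the cytosol, fell to 3.95 FPKM in Ptf1a samples, against 6.38 FPKM in GFP-only samples. Dnajb12, which sits in the ER membrane, rose to 7.29 FPKM in Ptf1a samples, against 4.39 FPKM in GFP-only samples. The family therefore held calls in both directions. Dnajb1, the classical heat-inducible J-domain gene, was not called, with 34.9 FPKM in Ptf1a samples and 32.7 FPKM in GFP-only samples.

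In the DNAJC family, a varied group with specialised tasks, 3 rose (12.0%) and 2 fell (8.0%) of the 25 tested. Among all tested genes 18.7% rose and 19.1% fell. Dnajc1, an ER membrane protein that binds both BiP and ribosomes, rose to 2.78 FPKM in Ptf1a samples, against 1.38 FPKM in GFP-only samples, a log2 difference of 0.96 (implied standard error 0.57; q = 0.000874 in the authors' deposited table). Its locus in the table is shared with the neighbouring gene Mllt10. Dnajc9, which hands histones to chromatin in dividing cells, rose to 123 FPKM in Ptf1a samples, against 102 FPKM in GFP-only samples. Markers of cycling cells rose as well, in 5 of 6 genes, with a median log2 difference of 1.18 over the list. The summed level was 342 FPKM in Ptf1a samples and 283 FPKM in GFP-only samples, most of it from the uncalled Pcna (223 FPKM in Ptf1a samples, 230.4 FPKM in GFP-only samples). The part of cycling cells in the rise of Dnajc9 was not tested. Dnajc16, a membrane J-domain gene, rose from a weak level, with 0.593 FPKM in Ptf1a samples and 0.323 FPKM in GFP-only samples.

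Dnajc19, part of the motor that pulls proteins into mitochondria, fell to 211 FPKM in Ptf1a samples, against 319 FPKM in GFP-only samples, a log2 difference of -0.59 (implied standard error 0.27; q = 0.000329 in the authors' deposited table). Its locus is shared with Fxr1. Dnajc25, another membrane J-domain gene, fell to 0.466 FPKM in Ptf1a samples, against 1.00 FPKM in GFP-only samples, with an implied standard error of 0.82 on the log2 scale. Of the abundant DNAJC genes, the splicing-associated Dnajc8 (193 FPKM in both groups), Dnajc7 (134 FPKM in Ptf1a samples, 130.3 FPKM in GFP-only samples) and the mitochondrial Dnajc15 (135 FPKM in Ptf1a samples, 147 FPKM in GFP-only samples) were not called. Of the 4 genes for vesicle and coat traffic in neurons none was called, beside 37.7% called among all tested genes. Among them the synaptic vesicle chaperone gene Dnajc5 stood at 12.8 FPKM in Ptf1a samples and 13.8 FPKM in GFP-only samples, and the auxilin gene Dnajc6 at 1.38 FPKM in Ptf1a samples and 1.78 FPKM in GFP-only samples.

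Small heat shock genes held the widest range of differences. Of 8 genes, 1 rose, 2 fell, 1 was not called and 4 had no test. That is 25.0% and 50.0% of only 4 tested genes, beside 18.7% risen and 19.1% fallen among all tested genes. Hspb3 (chromosome 13, 114453104 to 114453884, mm9), a small heat shock protein best known from muscle, had 1.30 FPKM in Ptf1a samples, against 7.17 FPKM in GFP-only samples. That is a level 5.50 times higher in GFP-only samples and a log2 difference of -2.37 (implied standard error 0.64; q = 0.000329 in the authors' deposited table). Hspb11 (chromosome 4, 106926539 to 106952493, mm9) fell to 48.8 FPKM in Ptf1a samples, against 83.1 FPKM in GFP-only samples (log2 difference -0.77, implied standard error 0.23). Although named as a heat shock gene, it encodes the intraflagellar transport protein IFT25, a part of the machinery of cilia.

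Hspb8, which delivers damaged proteins for autophagy together with Bag3, rose to 1.41 FPKM in Ptf1a samples, against 0.704 FPKM in GFP-only samples (q = 0.0265 in the authors' deposited table). Hspb6 was not called, at 5.85 FPKM in Ptf1a samples with a log2 difference of 0.22. Hspb1, the heat-inducible Hsp27 gene, was listed at 0.574 FPKM in Ptf1a samples and at 0 in GFP-only samples, in a row without a test. Hspb2, Hspb7 and Hspb9 also had no test, and their highest values were 0.126 FPKM in Ptf1a samples (Hspb9) and 0.205 FPKM in GFP-only samples (Hspb2).

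The mitochondrial chaperonin is built from Hsp60, encoded by Hspd1, and its lid Hsp10, encoded by Hspe1. The genes lie head to head on chromosome 1, with 215 bases between them in the mm9 coordinates of the table. Hspe1 (55144992 to 55148161) fell to 322 FPKM in Ptf1a samples, against 440.4 FPKM in GFP-only samples (log2 difference -0.45, implied standard error 0.18; q = 0.000329 in the authors' deposited table). Its difference was -0.13 with the median of genes of like abundance taken off, and -0.11 with that of genes of like length. Hspd1 had 125 FPKM in Ptf1a samples, against 117 FPKM in GFP-only samples, and was not called. The ratio of Hspd1 to Hspe1 was 0.390 in Ptf1a samples and 0.266 in GFP-only samples, and the difference between the genes was not tested.

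Promoters are shown for members with a stress motif upstream of the gene, since HSF1 and the factors of ER stress act through such sites. The search covered windows from 250 bases before to 50 bases after each RefSeq transcript start (GRCm38.p6, a later build than the table's), on both strands, in 85 windows of 66 members. The heat shock element, spelled GAANNTTCNNGAA, stood in 6 of the 85 member windows (4 of 66 genes) and in 198 of all 32851 windows (0.603%). The ER stress element, spelled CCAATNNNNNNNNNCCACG, stood in 3 of the 85 member windows (3 of 66 genes) and in 39 of all windows (0.119%). Windows of alternative starts, and those of Hspd1 and Hspe1, overlap and share matches. No window held both motifs. Looser spellings were not searched, and the windows of the heat-inducible members Hspa1a, Hspa1b, Hspb1 and Dnajb1 held no match to either spelling. Without an entry were Hspa8, Hspa9, Hspa13, Hsp90aa1, Hsp90ab1, Hspb2, Cct4, Dnajc2, Dnajc5, Dnajc5b, Dnajc11, Dnajc12, Dnajc18, Dnajc22 and Dnajc30. Capitals mark the matches, and each stretch runs 5′ to 3′ on the strand of its gene and ends before the start of transcription.
Hspe1 (chr1:55088019-55088116, plus strand): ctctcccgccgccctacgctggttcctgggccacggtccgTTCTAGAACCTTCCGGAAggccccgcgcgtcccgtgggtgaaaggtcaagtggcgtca
Dnajb6 (chr5:29735812-29735897, plus strand): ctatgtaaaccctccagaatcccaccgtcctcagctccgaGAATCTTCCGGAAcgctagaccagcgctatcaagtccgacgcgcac
Hspa5 (chr2:34771985-34772083, plus strand): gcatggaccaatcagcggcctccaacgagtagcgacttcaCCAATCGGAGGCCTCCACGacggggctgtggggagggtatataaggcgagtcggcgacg
Hsp90b1 (chr10:86705493-86705694, minus strand): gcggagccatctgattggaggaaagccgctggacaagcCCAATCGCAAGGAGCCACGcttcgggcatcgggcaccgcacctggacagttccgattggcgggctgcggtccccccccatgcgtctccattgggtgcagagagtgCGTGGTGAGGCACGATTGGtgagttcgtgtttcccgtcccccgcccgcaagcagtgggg
Dnajc3 (chr14:118937787-118937885, plus strand): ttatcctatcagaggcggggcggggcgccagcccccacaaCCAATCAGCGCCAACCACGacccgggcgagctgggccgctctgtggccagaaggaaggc

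The Hspe1 stretch holds 2 overlapping heat shock elements in 18 bases. It also lies in the window of Hspd1: the windows of the gene pair share 285 of 300 bases, read on opposite strands. The same elements thus stand beside a gene that fell, Hspe1, and one that was not called, Hspd1. Dnajb6, with 1 such element, fell, while Hsph1, whose element lies after its transcription start, was not called. Among the members with an ER stress element, Hspa5 rose. Hsp90b1, with 2 of them, and Dnajc3, which restrains a translation-blocking kinase, were not called, and Dnajc3 had 2.57 FPKM in Ptf1a samples and 2.00 FPKM in GFP-only samples. A match describes letters in a window and shows neither binding nor use.

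Of the CCT genes, which encode the different subunits of 1 ring, most were not called. Of the 9 genes that the naming rule found, 7 were tested, and 1 of them fell (14.3%) while the other 6 were not called. At any level 19.1% of all tested genes fell, and above 50 FPKM, where these 7 stand, 50.4% did. The lowest of the 7, Cct2, stood at 194 FPKM in Ptf1a samples and 207 FPKM in GFP-only samples. Cct4 fell to 378 FPKM in Ptf1a samples, against 473 FPKM in GFP-only samples, a log2 difference of -0.32 (implied standard error 0.21; q = 0.00701 in the authors' deposited table). Cct7, with 508 FPKM in Ptf1a samples and 597 FPKM in GFP-only samples, had a q of 0.0512 in the authors' deposited table.

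Cct5, the most abundant subunit gene, had 592 FPKM in Ptf1a samples and 608 FPKM in GFP-only samples. Cct2, Cct3, Cct5, Cct6a and Cct8 lay between -0.097 and 0.098 on the log2 scale. The subunit gene Tcp1, which the naming rule does not reach, was not called, with 223 FPKM in Ptf1a samples and 219 FPKM in GFP-only samples. Cct6b, a testis form, and Cct8l1 had no test, with 0.278 and 0.0114 FPKM in Ptf1a samples.

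Of 15 genes for CCT partners, prefoldin and tubulin cofactors, 9 fell (60.0%) and 6 were not called, with a median log2 difference of -0.37. Most of them stood above 50 FPKM, where 50.4% of all tested genes fell. The 60.0% also covers Pdcl, Tbcc, Tbcd and Tbce, which stood under 50 FPKM, so these shares are not over like sets. Prefoldin, which passes new actin and tubulin chains to CCT, fell in 5 of its 6 genes. All of them stood above 135 FPKM and thus in the range where 50.4% fell. Pfdn4 had 249 FPKM in Ptf1a samples, against 487 FPKM in GFP-only samples. Pfdn1 had 135 FPKM in Ptf1a samples, against 209.8 FPKM in GFP-only samples. The prefoldin gene that was not called, Pfdn2, had 248 FPKM in Ptf1a samples and 287 FPKM in GFP-only samples. Tubulin cofactors, which join the folded tubulin chains, fell in 4 of 5 genes, beside 19.1% of all tested genes at any level. Of the fallen cofactors, Tbca and Tbcb stood above 50 FPKM, where 50.4% of all tested genes fell. Tbcc and Tbce stood between 5 and 50 FPKM, where 20.6% fell. Tbca had 583 FPKM in Ptf1a samples, against 1150 FPKM in GFP-only samples, a log2 difference of -0.98 (implied standard error 0.16; q = 0.000329 in the authors' deposited table).

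The median log2 differences were -0.059 over the 8 genes of the CCT ring, -0.48 over prefoldin and -0.56 over the tubulin cofactors. With the median of genes of like abundance taken off, that of the ring was 0.26, that of prefoldin -0.16 and that of the cofactors -0.25. Prefoldin transcripts are short (median 1109 bases) beside those of the ring (median 2394 bases). With the median of genes of like length taken off, the values were 0.015, -0.29 and -0.31 for ring, prefoldin and cofactors. No test compared these lists with one another.

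**Figure D3:**
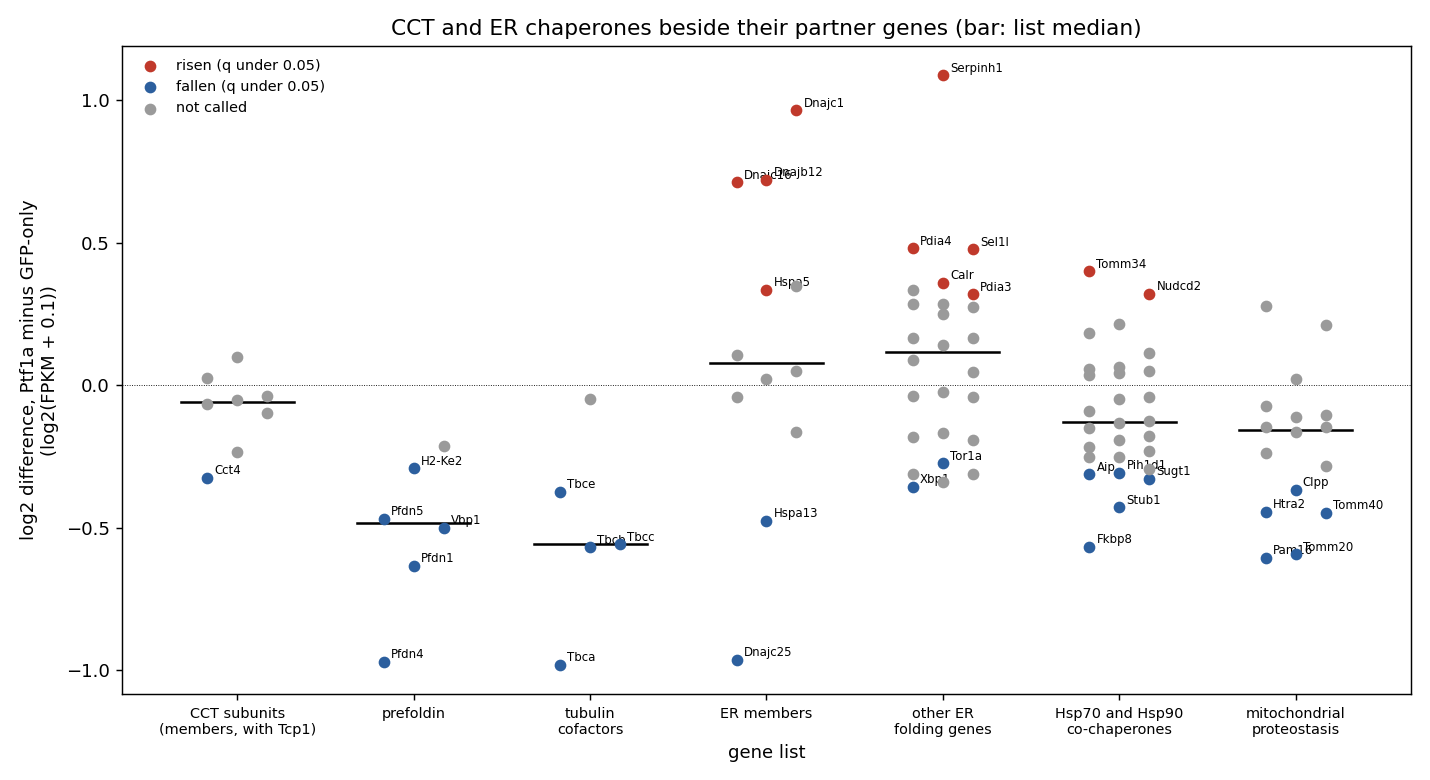
Log2 differences (Ptf1a minus GFP-only samples, log2(FPKM + 0.1)) of CCT subunit genes, ER members and their partner lists, 1 point per tested gene, coloured by call, with list medians as bars. CCT subunits gather near 0 (median -0.059), while prefoldin and tubulin cofactors lie mostly below it, down to -0.98 for Tbca.

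Sorted by compartment, ER members were called in both directions. Of 12 ER members 4 rose (Hspa5, Dnajb12, Dnajc1, Dnajc16), 2 fell (Hspa13, Dnajc25) and 6 were not called. That is 33.3% risen and 16.7% fallen, beside 18.7% and 19.1% of all tested genes. Among the uncalled, Dnajb9 had 8.53 FPKM in Ptf1a samples and 9.56 FPKM in GFP-only samples, and Dnajb11 had 24.8 FPKM in Ptf1a samples and 24.0 FPKM in GFP-only samples. Of 26 other tested genes of ER folding and the unfolded protein response, 5 rose (19.2%), 2 fell (7.69%) and 19 were not called. Serpinh1, the collagen chaperone, rose to 18.9 FPKM in Ptf1a samples, against 8.87 FPKM in GFP-only samples. Pdia4, a disulfide isomerase, rose to 57.2 FPKM in Ptf1a samples, against 41.0 FPKM in GFP-only samples. Xbp1, a factor that drives the response, fell to 45.0 FPKM in Ptf1a samples, against 57.6 FPKM in GFP-only samples.

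Mitochondrial members were called in 2 of 8 cases (25.0%), the falls of Hspe1 and Dnajc19. At any level 19.1% of all tested genes fell, and above 50 FPKM, where Hspe1 and Dnajc19 stand, 50.4% did. Of 16 further mitochondrial import and protease genes 5 fell (31.25%) and 11 were not called. Pam16, which works with the import motor, fell to 224 FPKM in Ptf1a samples, against 340.1 FPKM in GFP-only samples. The import receptor gene Tomm20 fell to 39.1 FPKM in Ptf1a samples, against 59.0 FPKM in GFP-only samples.

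The genes listed here as heat-inducible were called in both directions. Of 13 such members 2 rose (Hspa4l, Hspb8), 3 fell (Hsp90aa1, Hspe1, Dnajb4), 5 were not called and 3 had no test. The uncalled include Hspa8, described above as constitutive. Of the 10 tested, 20.0% rose and 30.0% fell, beside 18.7% and 19.1% of all tested genes at any level. Among the fallen, Hsp90aa1 and Hspe1 had a mean over 50 FPKM, where 50.4% of all tested genes fell. Dnajb4 had a mean between 5 and 50 FPKM, where 20.6% fell. The risen Hspa4l and Hspb8 had a mean up to 5 FPKM, where 25.4% of all tested genes rose. Hspa1a and Hspa1b, the inducible Hsp70 genes, had no test and stood at 0.117 and 0.0314 FPKM in Ptf1a samples, with 0.0193 FPKM for Hspa1a and a listed 0 for Hspa1b in GFP-only samples. Their sequences are nearly identical, so reads may have been split between them. Hsf1, the master regulator, rose to 10.3 FPKM in Ptf1a samples, against 7.81 FPKM in GFP-only samples (q = 0.0327 in the authors' deposited table). Hsbp1, which binds HSF1 and restrains it, fell to 566 FPKM in Ptf1a samples, against 727 FPKM in GFP-only samples. Its log2 difference was -0.36, beside a median of -0.32 for genes of like abundance. A link between the calls of Hsf1 and Hsbp1 was not tested. Hsf2bp, a weakly expressed partner of HSF2, fell to 0.291 FPKM in Ptf1a samples, against 0.975 FPKM in GFP-only samples. Hsf2 was not called.

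Of 28 co-chaperone genes of Hsp70 and Hsp90 2 rose (7.14%), 5 fell (17.9%) and 21 were not called. Among all tested genes 18.7% rose and 19.1% fell. Fkbp8, a membrane immunophilin, fell to 239 FPKM in Ptf1a samples, against 354 FPKM in GFP-only samples. Stub1, the ubiquitin ligase CHIP, fell to 113 FPKM in Ptf1a samples, against 152 FPKM in GFP-only samples. Tomm34, a co-chaperone linked to mitochondrial import, rose to 19.7 FPKM in Ptf1a samples, against 14.9 FPKM in GFP-only samples. Of 11 nucleotide exchange factors outside the members 2 fell (18.2%) and 9 were not called. The Hsp110-type members are not in this list: Hspa4l, which rose, and Hspa4 and Hsph1, which were not called. Hspbp1, an exchange factor of cytosolic Hsp70, fell to 152 FPKM in Ptf1a samples, against 216 FPKM in GFP-only samples.

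Abundance moved with the direction of change across the whole table. By decile of mean FPKM, the median log2 difference of all tested genes was 0.47 in the lowest and -0.32 in the highest. Chaperones are abundant: 24 of 65 tested members had a mean over 50 FPKM, against 1838 of 11876 tested genes. Among those 24 members 2 rose (8.33%) and 7 fell (29.2%), beside 5.5% and 50.4% of all tested genes at that level. Their median log2 difference was -0.099, beside -0.26 for all tested genes above 50 FPKM. Among 22 members between 5 and 50 FPKM 2 rose and 2 fell (9.09% each), beside 14.7% and 20.6% of all tested genes. Among 19 members up to 5 FPKM 4 rose (21.1%) and 2 fell (10.5%), beside 25.4% and 8.38% of all tested genes.

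**Figure D4:**
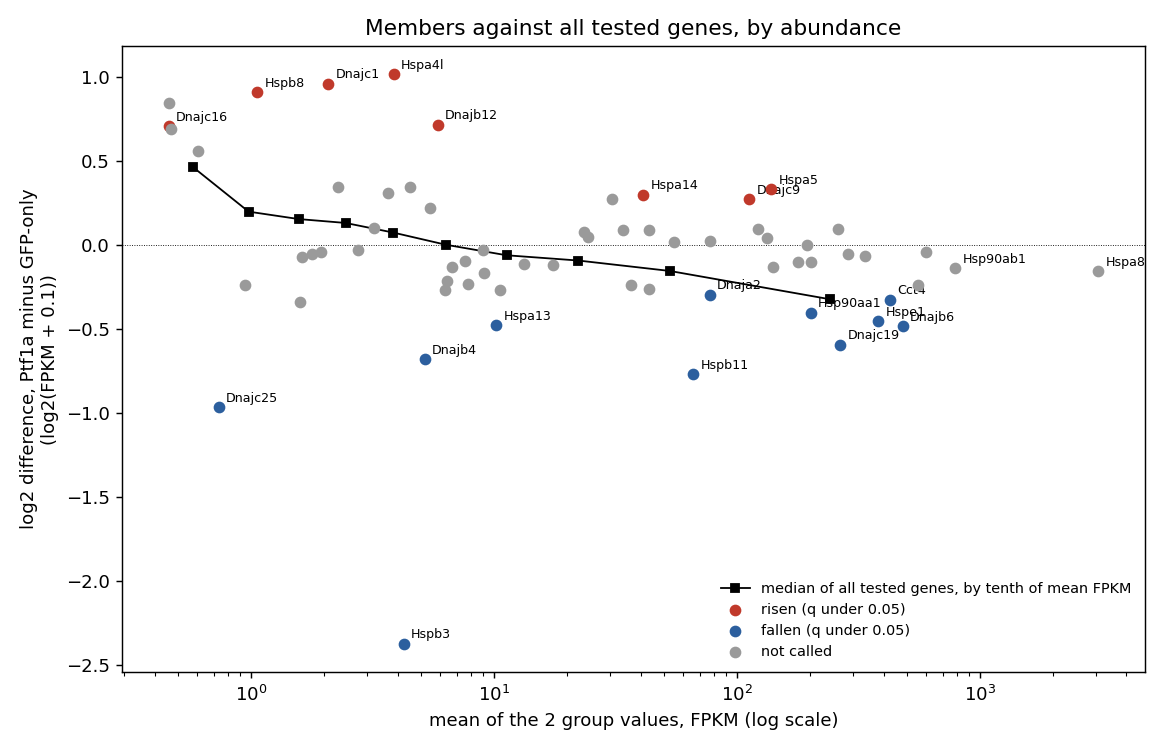
Log2 differences (Ptf1a minus GFP-only samples, log2(FPKM + 0.1)) of tested members against their mean FPKM on a log scale, coloured by call, with black squares for the median of all tested genes in each decile of mean FPKM. The squares run from 0.47 at the weak end to -0.32 at the abundant end, and most members above 50 FPKM lie above that line.

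Several class directions depend on this scale. With the median of genes of like abundance taken off, the median of all tested members was 0.14 instead of -0.053, and that of CCT was 0.25 instead of -0.066. That of Hsp90 was 0.17 instead of -0.14, and that of the mitochondrial chaperonins 0.14 instead of -0.18. Each of the 19 called members kept its sign, but the falls of abundant genes shrank. Hsp90aa1 came to -0.081 instead of -0.40, Hspe1 to -0.13 instead of -0.45, Dnajb6 to -0.16 instead of -0.48 and Cct4 to -0.0034 instead of -0.32, each then smaller than its implied standard error. Dnaja2 came to -0.14 instead of -0.29, also smaller than its implied standard error of 0.22. Dnajc19 came to -0.27 instead of -0.59, beside an implied standard error of 0.27. The rise of Dnajc16, a weak gene, came to 0.24 instead of 0.71. On this scale both values lie under its implied standard error of 0.72. The rises of the abundant Hspa5 and Dnajc9 grew, to 0.66 instead of 0.34 and to 0.60 instead of 0.28, and that of Hspa14 to 0.45 instead of 0.30. Hspb3 came to -2.45 instead of -2.37 and Hspb11 to -0.61 instead of -0.77.

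Transcript length moved with direction too, and over deciles of length the median of all tested genes ran from -0.34 (shortest) to 0.23 (longest). Risen members had a median longest transcript of 3371 bases and fallen members 2499 bases. Hspe1 and Hspb11, both short at 774 and 608 bases, had log2 differences of -0.11 and -0.42 after the median of genes of like length was taken off, against -0.45 and -0.77 before. That left Hspe1 under its implied standard error of 0.18. The part of abundance and length in these results was not tested.

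Markers of the sorted cells differed between the groups. Radial glia markers rose in 8 of 8 genes, with a median log2 difference of 1.42. Their summed level was 3455 FPKM in Ptf1a samples and 1801 FPKM in GFP-only samples, most of it from Fabp7 (3095 FPKM in Ptf1a samples, 1652 FPKM in GFP-only samples, log2 difference 0.91). Of 8 pyramidal neuron markers 6 fell and 2 were not called, with a sum of 1274 FPKM in Ptf1a samples and 1828 FPKM in GFP-only samples, so markers of the labelled cell type were present in both groups. Endothelial markers summed to 4.38 FPKM in Ptf1a samples and 3.00 FPKM in GFP-only samples, with Cldn5 tested and not called and the other 3 without a test. Microglial markers summed to 9.07 FPKM in Ptf1a samples and 14.3 FPKM in GFP-only samples, with 1 of the 4 tested fallen and 1 without a test. Red blood cell markers summed to 19.5 FPKM in Ptf1a samples and 50.3 FPKM in GFP-only samples, with 1 of the 3 tested fallen (Hbb-y) and Hbb-bh1 at 0 in both groups. Of 8 immediate early genes, which cell dissociation can induce, 1 rose and 3 fell, with a sum of 146 FPKM in Ptf1a samples and 158 FPKM in GFP-only samples. The part of these markers in the chaperone results was not tested.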

How the data were processed

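Between 2.1 and 7.8 ng of RNA (integrity number over 8) went into SMARTer low-input libraries, with 10 amplification cycles and 50 bp paired reads, per the labels' protocols. The submitters' processing notes name CASAVA 1.8.2, TopHat2 2.0.8, Cufflinks 2.1.1, Cuffdiff and mm9; the annotation, strand setting and parameters are not given in the sources used here. Per the file headers, the authors deposited 1 FPKM value per gene and group, a log2 fold change, a signed test statistic (a score), and a p-value and q-value, in the layout that Cuffdiff writes. The column headed PIG was read as the Ptf1a group, the only group beside GFP. Depth per sample is unknown, and the labels do not say whether the brains of different samples came from separate litters or days. Any spread between samples behind the p-values may therefore be technical. The authors' p-values differ from a normal p of their test statistic, so what spread they measure is unknown here.

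Differences, class summaries and alternatives were computed here in Python 3.11.15 with pandas 2.3.3 and SciPy 1.17.1. A call is the authors' q under 0.05 (adjusted over 11876 tested rows), which matched their own mark in every row. The adjustment and motif search were checked on simulated data. Locus starts were read as counting from 0, since 7148 of 20598 spans then equal the RefSeq gene length, against 451 otherwise, and are printed counting from 1. Promoters (RefSeq, GRCm38.p6) and transcript lengths (GENCODE M21) were matched by symbol, for 66 and 80 members. Of the members, 12 share their locus with another gene, among them Cct7, Cct8, Dnaja1, Dnajb6, Dnajc1 and Dnajc19, and the deposited values were kept as they stand. Named genes were all members of the small classes, the called members with the largest differences and the most abundant uncalled members of the others, and the leading genes of the partner lists. Others, such as Hspa2 and Hspa1l, were chosen after their values were seen. Members and lists were chosen with earlier results of these data known.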

Additional observations from a re-analysis of the deposited data

Results flagged for a closer look

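Hspb1, the gene of the inducible small heat shock protein Hsp27, drew attention as a signal in a row that the authors did not test: it was listed at 0.574 FPKM in Ptf1a samples and at 0 in GFP-only samples, the only untested member over 0.5 FPKM in Ptf1a samples and above its control, a limit set after its value was seen. With neither counts nor a test, its error is unknown.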

How the results depend on the processing

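No paired analysis was possible because the table gives 1 merged value per group, and leaving out each replicate was not run for the same reason. Against 8 risen and 11 fallen members, a q under 0.01 left 4 risen, at least 5 FPKM in the higher group left 5 risen, and a 1.5-fold minimum left 5 risen and 5 fallen. The normal p of the test statistic left 0 risen and 2 fallen after adjustment, and 2 risen and 5 fallen at an unadjusted p under 0.05; the cause was not tested. Subtracting the median of the same abundance decile gave 0.14 for all members, 0.17 for Hsp90, 0.14 for the mitochondrial chaperonins and 0.25 for CCT. Subtracting that of the same length decile, chosen after seeing the data, gave -0.27 for DNAJA (-0.13 before), 0.082 for DNAJC (-0.025), -0.020 for small heat shock genes (-0.27) and 0.014 for the mitochondrial chaperonins (-0.18). The Hsp70 median, with Hspa4 and Hspa4l counted, was 0.20 with at least 1 FPKM. Other pseudocounts, overall centring and the authors' own fold changes moved no class median by over 0.1, and no called member changed sign under any of these settings.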
